A study of Mus musculus with 18 samples.

Results

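The 10 genes described here are members of the major histocompatibility complex (MHC) antigen presentation machinery that were chosen by name: the class I genes H2-K1, H2-D1, B2m and Tap1, and the class II genes H2-Aa, H2-Ab1, H2-Eb1, H2-DMa, H2-DMb1 and Cd74. They are 10 of 54532 genes in a liver RNA-seq table of 18 mice, and all 10 were among the 10216 genes with a mean of at least 1 FPKM, which were tested. FPKM is a fragment count divided by gene length and by a library size, so levels of different genes can be set side by side per length.

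The study asked how SZ-A, an alkaloid extract of Ramulus Mori (mulberry twig), acts on obesity and fatty liver in mice on a high-fat diet. Livers came from male C57BL/6J mice that were 6 weeks old on arrival and were fasted overnight before collection, with 6 mice in each of 3 groups. NC mice ate a standard diet. HFD mice ate a high-fat diet for 14 weeks, then stayed on it while receiving saline, and SZ-A mice had the same diet and received SZ-A in that second period. That period was 6 weeks in the study's methods and 8 weeks in the deposited description. The dose and route of the sequenced SZ-A mice are not stated in the sources used here, and nothing in these groups separates an effect of SZ-A from a difference in body weight. One NC mouse, NC6, is labelled with the high-fat diet, against its own title. It was kept in NC by its title, and values without it are given beside the class II results of HFD against NC. Fragments on genes numbered 17163191 to 20493907 per mouse. The library size in the deposited FPKM was not this plain total. It was 0.933 to 1.02 times the total in NC, 0.998 to 1.14 times in HFD and 0.972 to 1.05 times in SZ-A mice. The deposited scale therefore lowered most HFD values relative to plain totals. When NC6 was left out, HFD and NC differed in 2025 called genes, and 67.1% of them lay nearer the NC mean in NC6, the lowest share among the 12 NC and HFD mice, which otherwise lay between 71.6% and 90.4% nearer their own group.

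MHC class I molecules sit on nearly all nucleated cells and display peptides from proteins made inside the cell. The heavy chains H2-K and H2-D bind the peptide, beta-2 microglobulin (B2m) is the light chain that all of them share, and Tap1 is a subunit of the transporter that brings peptides into the endoplasmic reticulum. MHC class II molecules are mainly found on professional antigen presenting cells, such as dendritic cells, B cells and macrophages, and display peptides from material that was taken up. H2-Aa and H2-Ab1 encode the alpha and beta chain of I-A, and H2-Eb1 encodes the beta chain of I-E. The alpha chain of I-E is not among the genes described here, and protein was not measured. The level of H2-Eb1 therefore does not show whether these mice made I-E. Cd74 encodes the invariant chain that guards the groove, and H2-DMa and H2-DMb1 encode the exchange factor that loads the peptide. The liver holds both kinds of cell, hepatocytes and resident macrophages called Kupffer cells among them.

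On the GRCm38 build, 8 of the 10 genes lie on chromosome 17 within the MHC region, between 33996017 and 35267499. H2-K1 is at chr17:33996017-34000333 on the minus strand, followed by H2-DMa at chr17:34135182-34139101, H2-DMb1 at chr17:34153072-34160230 and Tap1 at chr17:34187553-34197225, all 3 on the plus strand. H2-Ab1 at chr17:34263209-34269418 (plus), H2-Aa at chr17:34282744-34287827 (minus) and H2-Eb1 at chr17:34305877-34316199 (plus) follow, and H2-D1 at chr17:35262730-35267499 (plus) lies farther along. B2m is on another chromosome, at chr2:122147686-122153083 (plus), and Cd74 is on neither of these chromosomes. All 10 are protein-coding genes.

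Stretches just before the start site are shown for 2 class II and 2 class I members, because MHC genes of both classes are known to share promoter boxes there. RefSeq promoter windows (GRCm38.p6) were found for 8 of the 10 genes, all except H2-Ab1 and Cd74, and each line holds the 200 bases from 210 to 11 before the start, 5′ to 3′ on the gene's strand. Capitals mark ATTGG or its reverse complement CCAAT (the core of the Y box, bound by NF-Y), TGACG or its reverse complement CGTCA (the core of the X2 box, bound by CREB-type factors) and the interferon response element. The H2-Aa stretch is chr17:34287834-34288033 (minus), H2-Eb1 chr17:34305657-34305856 (plus), H2-K1 chr17:34000358-34000557 (minus) and B2m chr2:122147477-122147676 (plus).
H2-Aa: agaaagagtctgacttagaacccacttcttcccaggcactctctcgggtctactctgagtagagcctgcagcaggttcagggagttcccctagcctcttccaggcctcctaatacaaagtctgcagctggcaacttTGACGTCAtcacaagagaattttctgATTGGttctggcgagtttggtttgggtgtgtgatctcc
H2-Eb1: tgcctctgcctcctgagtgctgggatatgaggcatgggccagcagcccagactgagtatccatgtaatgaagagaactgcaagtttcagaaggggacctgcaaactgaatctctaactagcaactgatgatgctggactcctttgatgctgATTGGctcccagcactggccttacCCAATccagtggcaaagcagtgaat
H2-K1: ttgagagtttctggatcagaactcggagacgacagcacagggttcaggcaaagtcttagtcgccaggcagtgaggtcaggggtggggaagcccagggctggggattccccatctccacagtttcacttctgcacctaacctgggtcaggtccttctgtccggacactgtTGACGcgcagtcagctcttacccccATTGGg
B2m: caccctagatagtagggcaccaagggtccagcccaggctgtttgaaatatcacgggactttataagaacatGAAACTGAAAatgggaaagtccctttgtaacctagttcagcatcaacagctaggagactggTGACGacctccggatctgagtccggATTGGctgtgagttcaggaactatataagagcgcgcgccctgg

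The motif search covered the 250 bases before the start on both strands, in the 8 members and in all 32851 windows of the genome. H2-K1 and H2-DMa had 2 windows each. A member was counted if any of its windows held the letters, whereas the shares are per window, so the 2 are not strictly alike. ATTGG was present in 8 of 8 members and in 33.8% of all windows. For H2-DMa it was found only in the window chr17:34125268-34125567, which lies ahead of the gene position given above, and not in the other window. Its longer form CTGATTGG, which contains it, was present in 4 of 8 members (H2-Aa, H2-D1, H2-Eb1 and Tap1) and in 3.83% of all windows. TGACG was present in 5 of 8 (B2m, H2-Aa, H2-D1, H2-K1 and Tap1) against 17.8%, the interferon response element (GAAA, any 2 bases, GAAA) in 1 of 8 (B2m) against 2.98%, and TTCNNNGAA, the gamma-activated site, in 0 of 8 against 7.02%. In B2m, H2-Aa, H2-D1 and H2-K1 the letters TGACG were followed by ATTGG after a gap of 20 or 21 bases. This spacing was searched for after the windows had been seen, and it occurred in 50 of the 32851 windows, or 0.152%. These matches describe letters in a window and are not evidence of binding in these livers.

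B2m, H2-K1 and H2-D1 were among the most abundant transcripts of the liver, the class II genes were lower, and Tap1 lay below 4 of the 6 class II genes. Over the 18 mice, B2m had a mean of 1521 FPKM (rank 36 of the 10216 tested genes), H2-K1 571 FPKM (rank 90), H2-D1 311 FPKM (rank 160), Cd74 72.2 FPKM (rank 665), H2-Eb1 26.6 FPKM, H2-Ab1 22.4 FPKM, H2-Aa 17.8 FPKM, Tap1 5.43 FPKM, H2-DMb1 3.01 FPKM and H2-DMa 2.49 FPKM. In that order, B2m, H2-K1 and H2-D1 were separated from their neighbours in every group, whereas the levels of H2-Eb1, H2-Ab1 and H2-Aa overlapped, as did those of H2-DMb1 and H2-DMa. The summed class II chains H2-Aa, H2-Ab1 and H2-Eb1 relative to the summed heavy chains H2-K1 and H2-D1 amounted to 7.31% ± 4.03 (NC), 9.07% ± 4.50 (HFD) and 6.24% ± 1.45 (SZ-A; SD, n = 6 each). The fragments behind a value ranged from 11841 to 32484 for the abundant class I genes, H2-K1, H2-D1 and B2m, and from 22 to 208 for H2-DMb1 and 43 to 138 for H2-DMa, so that counting error weighs most on the last pair.

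**Figure D1:**
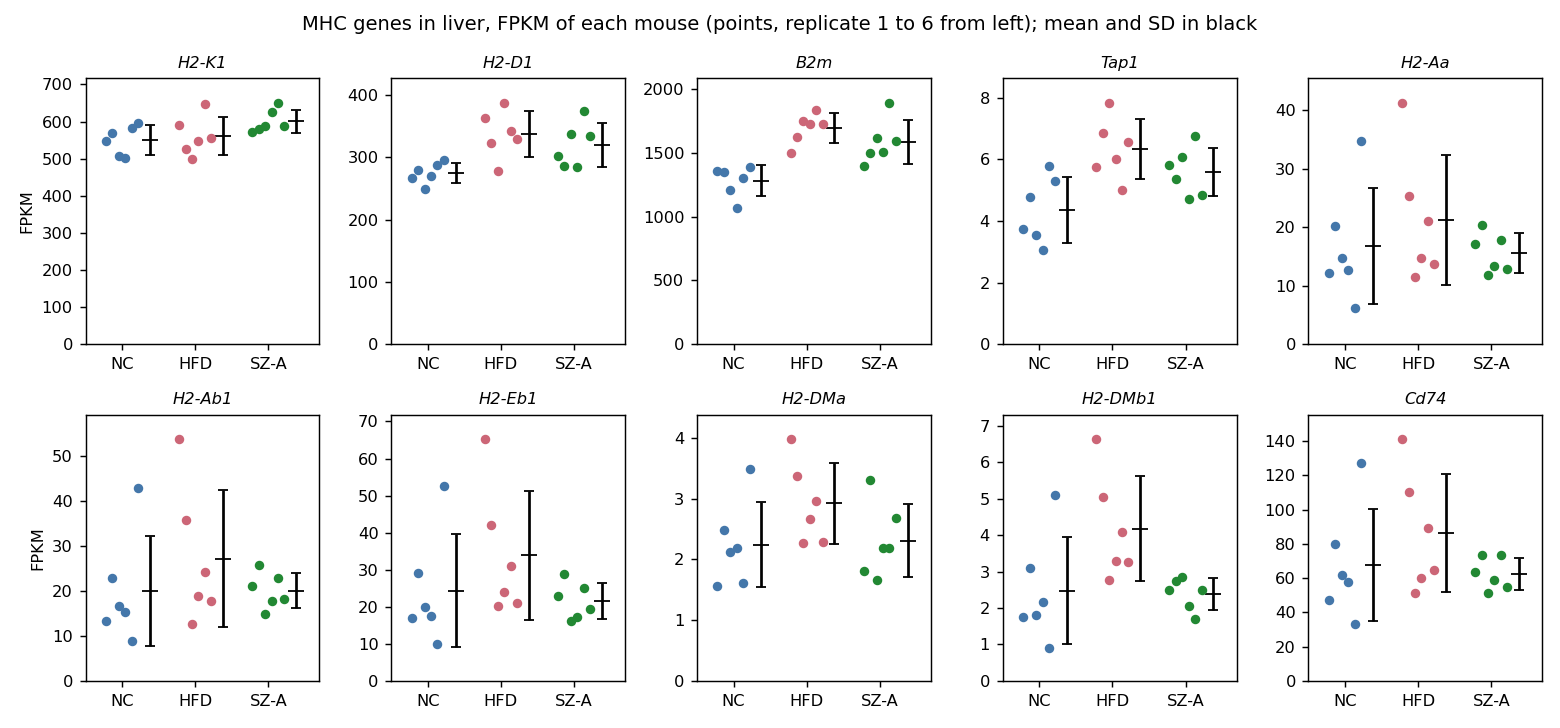
FPKM (linear axes from 0) of the 10 MHC genes in each mouse, 6 mice in each of the NC, HFD and SZ-A groups, with the group mean and SD in black. B2m is higher in all 6 HFD mice than in any NC mouse, and the class II genes are highest in the same mice, NC6 and HFD1.

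The light chain of class I was higher on the high-fat diet. B2m had a lowest, median and highest value of 1069, 1329 and 1392 FPKM in NC, 1502, 1728 and 1841 FPKM in HFD, and 1400, 1550 and 1895 FPKM in SZ-A mice. All 6 HFD mice and all 6 SZ-A mice lay above all 6 NC mice, while HFD and SZ-A mice overlapped. Mean levels were 1282 ± 122 FPKM (NC), 1696 ± 117 FPKM (HFD) and 1586 ± 170 FPKM (SZ-A; SD, n = 6 each), and the log2 fold change of HFD against NC was 0.41 (SE 0.0905, adjusted p = 0.00697 by limma). These fold changes, like all below, are on the scale of log2(FPKM + 0.1), which understates changes of low genes. B2m kept this call when any single mouse was left out, with a log2 fold change between 0.36 and 0.44. It lost the call with no filter on low values (adjusted p = 0.0528 by limma) and when a fold change over 2 was required. In bulk liver, more cells of a type and more RNA per cell cannot be told apart, for B2m or for any gene here.

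Of the 2 heavy chains, H2-D1 passed the test and H2-K1 did not. H2-D1 had a lowest, median and highest value of 249.9, 275 and 295 FPKM in NC, 279, 336 and 388 FPKM in HFD, and 284, 318 and 374 FPKM in SZ-A mice. HFD3 lay within the NC range and the other 5 HFD mice lay above it. The rise in HFD against NC passed the test, with a log2 fold change of 0.29 (SE 0.0866, adjusted p = 0.0302), but the call was lost when NC1, NC2, NC3, NC4, HFD1 or HFD4 was left out (adjusted p = 0.0507 to 0.0666). H2-K1 had 502, 558 and 597 FPKM in NC, 499, 552 and 647 FPKM in HFD, and 572, 588 and 651 FPKM in SZ-A mice. The 3 ranges overlapped, and the log2 fold change of HFD against NC was 0.03 with a 95% interval from −0.16 to 0.21 (adjusted p = 0.859 by limma). With all mice kept, other settings gave 0.025 to 0.22 for H2-K1, which was never called, and 0.29 to 0.48 for H2-D1. Whether H2-D1 and H2-K1 differed in their response was not tested. Their ratio within a mouse was 1.86 to 2.05 in NC and 1.41 to 1.89 in HFD mice, with means of 2.0 ± 0.0707 and 1.67 ± 0.163 (SD, n = 6 each), and 1.89 ± 0.188 in SZ-A mice. B2m relative to H2-K1 plus H2-D1 came to 1.55 ± 0.0989 (NC), 1.90 ± 0.217 (HFD) and 1.72 ± 0.0843 (SZ-A). H2-D1 shares 1.79% of its 150-base windows with the class I gene H2-Q1 in the GENCODE M21 transcripts, and H2-K1 and B2m share none with another gene.

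Tap1, the peptide transporter subunit, also rose. Its lowest, median and highest values were 3.06, 4.27 and 5.77 FPKM in NC, 5.01, 6.29 and 7.84 FPKM in HFD, and 4.70, 5.59 and 6.75 FPKM in SZ-A mice. NC5 and NC6 reached into the HFD range and the other 4 NC mice lay below it. The log2 fold change of HFD against NC was 0.55 (SE 0.156, adjusted p = 0.0244), and the call was lost without NC3, NC4, HFD2 or HFD3 (adjusted p = 0.0501 to 0.0537).

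Together, 3 of the 10 genes were called higher in HFD than in NC mice and 0 were called lower. Genes were called where the adjusted p was under 0.05 and the fold change exceeded 1.2. Of all 10216 tested genes, 20.2% were called in this comparison, 10.7% as higher and 9.49% as lower. At an unadjusted p under 0.05 there were 4 of 10, these 3 and H2-DMb1, against 34.8% of all genes. B2m was the 1 member of 10 whose groups did not overlap, against 10.5% of all genes in either direction and 5.48% upwards. The 4 class I members had a median log2 fold change of 0.35 and the 6 class II members one of 0.42, against −0.03 over all tested genes. Leaving out single mice gave 1 to 5 called members: only B2m remained without NC3 or without NC4, and H2-DMa and H2-DMb1 joined the 3 without NC6. Giving every mouse the same FPKM sum moved the median of all genes to 0.15 and the split of calls from 1092 higher and 970 lower to 2100 higher and 334 lower, with 4 members called higher and 0 lower. With plain fragment totals as library size (voom on whole fragments), the split was 2010 higher and 409 lower, so it depended on the library size used.

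Class II genes had higher mean levels in HFD than in NC mice, but the mice of a group differed so much that none of the 6 passed the test. H2-Aa, the I-A alpha chain, had a lowest, median and highest value of 6.13, 13.7 and 34.7 FPKM in NC, 11.5, 17.9 and 41.3 FPKM in HFD, and 11.7, 15.2 and 20.3 FPKM in SZ-A mice. The highest NC mouse, NC6, lay above 5 of the 6 HFD mice, and the groups overlapped broadly. H2-Ab1, its partner chain, had 8.79, 16.0 and 43.0 FPKM in NC, 12.6, 21.6 and 53.7 FPKM in HFD, and 14.8, 19.6 and 25.8 FPKM in SZ-A mice. H2-Eb1, the I-E beta chain, had 9.86, 18.6 and 52.6 FPKM in NC, 20.1, 27.5 and 65.2 FPKM in HFD, and 16.2, 21.1 and 28.9 FPKM in SZ-A mice. In these genes too, NC6 and HFD1 stood at the top of their groups and all groups overlapped. The log2 fold changes of HFD against NC were 0.39 for H2-Aa (95% interval −0.43 to 1.22), 0.46 for H2-Ab1 (−0.37 to 1.29) and 0.55 for H2-Eb1 (−0.26 to 1.35), intervals that hold both 0 and values above 1 on the log2 scale. Single mice moved these values: they were 0.64 (H2-Aa), 0.71 (H2-Ab1) and 0.81 (H2-Eb1) without NC6, 0.14, 0.26 and 0.33 without NC5, and 0.17, 0.23 and 0.33 without HFD1. None of them was called without any single mouse.

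The genes that serve the class II groove also had their highest mean in HFD mice. Cd74, the invariant chain, had a lowest, median and highest value of 33.3, 59.6 and 127 FPKM in NC, 51.5, 76.8 and 141 FPKM in HFD, and 51.6, 61.1 and 73.8 FPKM in SZ-A mice, with a log2 fold change of HFD against NC of 0.38 (95% interval −0.29 to 1.05). It was 0.59 without NC6, 0.20 without NC5 and 0.22 without HFD1, and was not called in any of these. H2-DMa had 1.56, 2.16 and 3.49 FPKM in NC, 2.27, 2.81 and 3.98 FPKM in HFD, and 1.67, 2.19 and 3.32 FPKM in SZ-A mice, with a log2 fold change of 0.39 (−0.02 to 0.80), and 0.52 without NC6 (adjusted p = 0.0451). H2-DMb1 had 0.915, 1.98 and 5.10 FPKM in NC, 2.76, 3.68 and 6.63 FPKM in HFD, and 1.70, 2.49 and 2.84 FPKM in SZ-A mice. Of the NC mice, NC2 and NC6 reached into the HFD range of H2-DMb1, and 5 of the 6 SZ-A mice lay below every HFD mouse. Its log2 fold change of HFD against NC was 0.85 (SE 0.330, unadjusted p = 0.0222, adjusted p = 0.0825 by limma). Without NC6 it was 1.1 (adjusted p = 0.0165). H2-DMb1 shares 5.74% of its 150-base windows with its near copy H2-DMb2, whose level stayed below 1 FPKM in every mouse.

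In SZ-A against HFD mice, 0 of the 10 members were called by limma, against 0.147% of all tested genes (0.0783% higher and 0.0685% lower), and voom on whole fragments also called 0. All 10 members overlapped between these groups, where 1.28% of all genes did not. At an unadjusted p under 0.05 there was 1 of 10, against 14.8% of all genes. That gene was H2-DMb1, with a log2 fold change of −0.74 (SE 0.197, unadjusted p = 0.00247, adjusted p = 0.122). Its adjusted p lay between 0.0488 and 0.293 over the other settings, and was under 0.05 in 1 of them, when FPKM was rescaled to a common sum, which moved the median of all genes to −0.15. All 6 class II log2 fold changes were negative, with a median of −0.36 against 0.03 over all tested genes. They were −0.33 for H2-Aa (95% interval −0.92 to 0.26), −0.29 for H2-Ab1 (−0.92 to 0.34), −0.54 for H2-Eb1 (−1.12 to 0.04), −0.33 for H2-DMa (−0.71 to 0.05) and −0.38 for Cd74 (−0.86 to 0.10). Without HFD1, these 5 values were −0.11 for H2-Aa, −0.059 for H2-Ab1, −0.33 for H2-Eb1, −0.24 for H2-DMa and −0.22 for Cd74. H2-Ab1 was −0.18 without HFD2 and −0.48 without HFD3. The class I values were −0.10 for B2m (−0.29 to 0.09), −0.08 for H2-D1 (−0.28 to 0.13), −0.17 for Tap1 (−0.42 to 0.07) and 0.10 for H2-K1 (−0.06 to 0.26), which turned to −0.076 with every mouse at the same FPKM sum and to −0.010 with voom and plain library totals. This comparison uses the same HFD mice as that of HFD with NC, so opposite signs in both are not independent.

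In SZ-A against NC mice, 0 of the 10 members were called by limma, against 9.6% of all tested genes (5.31% higher). At an unadjusted p under 0.05 there were 3 of 10, against 25.5% of all genes. These 3 were the class I genes that had risen in HFD. B2m had a log2 fold change of 0.31 (SE 0.0974, unadjusted p = 0.00762, adjusted p = 0.0646), H2-D1 one of 0.21 (adjusted p = 0.128) and Tap1 one of 0.38 (adjusted p = 0.140). B2m was also the 1 member of 10 whose groups did not overlap, against 5.5% of all genes in either direction and 2.83% upwards, and it passed the test under 4 other settings (adjusted p = 0.0208 to 0.046), among them voom with plain library totals. With median-ratio library sizes, voom called 0. The 6 class II values had a median of 0.06, with 95% intervals that all held 0, for example −0.63 to 0.74 for H2-Aa.

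**Figure D2:**
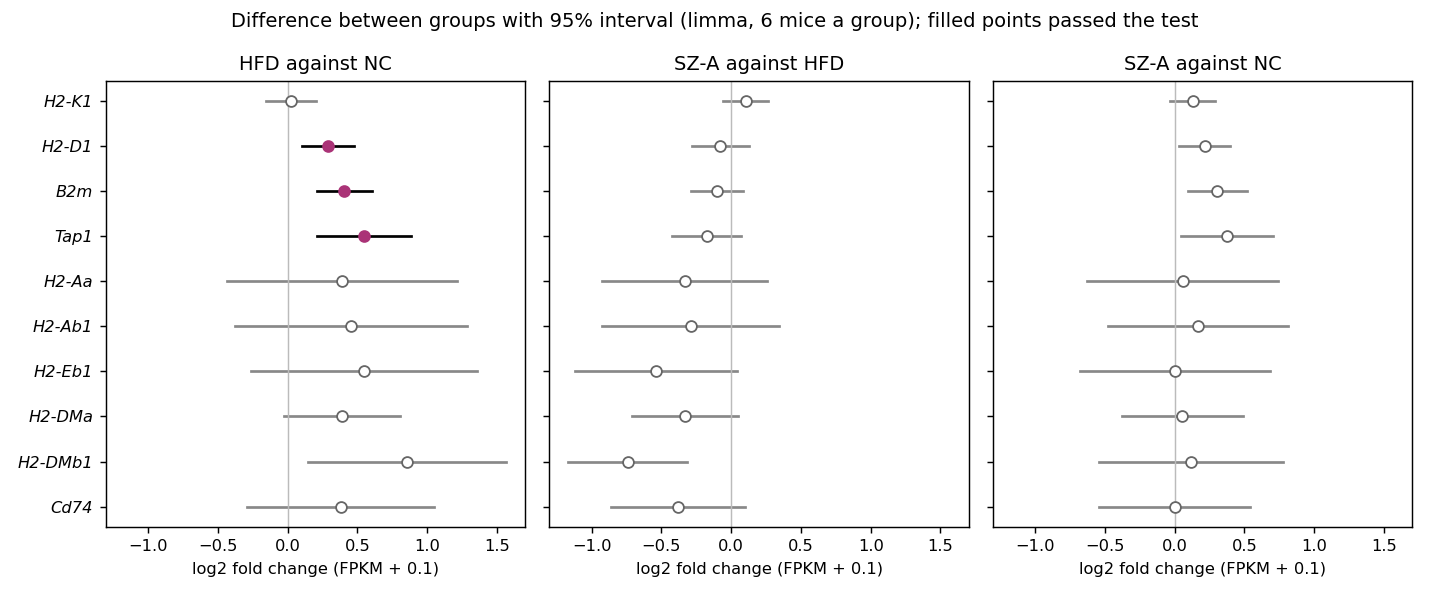
Log2 fold change (horizontal axis, FPKM + 0.1) of each MHC gene in the 3 comparisons, with 95% intervals from limma over 6 mice a group and filled points for calls. B2m, H2-D1 and Tap1 are filled in HFD against NC, and the class II intervals are wide in all 3 panels.

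Mice of one group varied little in 3 of the 4 class I genes and widely in class II genes. The within-group SD on the log2 scale was 0.11 for H2-K1, 0.13 for B2m and 0.14 for H2-D1, below the median of 0.21 over all tested genes, and 0.26 for Tap1. It was 0.64 for H2-Aa, 0.64 for H2-Ab1, 0.63 for H2-Eb1, 0.55 for H2-DMb1, 0.51 for Cd74 and 0.36 for H2-DMa. H2-K1 stood at the 4.42nd percentile of all tested genes in this spread and H2-Aa at the 95.1st. In NC mice the SD of H2-Aa was 58.8% of its mean and that of H2-K1 7.15%, with NC6 included. NC6 had 34.7 FPKM of H2-Aa and the next highest NC mouse, NC2, 20.2 FPKM. In SZ-A mice the shares for H2-Aa and H2-K1 were 21.7% and 5.11%.

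Class II genes rose and fell together from mouse to mouse. NC6 had the highest NC value in 6 of the 6 class II genes, HFD1 the highest HFD value in 6 of 6, and HFD3 the lowest HFD value in 6 of 6. NC5 had the lowest NC value in 5 of 6 and SZ-A2 the highest SZ-A value in 5 of 6. With group means removed, Pearson's r over the 18 mice was 0.74 to 0.99 in the 15 class II pairs, and 15 of 15 had an adjusted p under 0.05 in a permutation test within groups (45 pairs tested, Benjamini-Hochberg; highest adjusted p = 0.00489). Spearman's rho was 0.69 to 0.99, with 15 of 15 also under 0.05 (highest adjusted p = 0.0143). Without the 2 mice farthest from the median, r was 0.65 to 0.98. H2-Ab1 stood in a nearly fixed ratio to H2-Aa, 1.25 ± 0.105 (SD, n = 18), and Cd74 at 4.19 ± 0.467 times H2-Aa.

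Class I genes moved less tightly with each other. Their 6 pairs had r between 0.12 and 0.55, with 0 of 6 at an adjusted p under 0.05 by r and 2 of 6 by rho (permutation test). H2-K1 with H2-D1 had an r of 0.55 (permutation p = 0.0254, adjusted p = 0.0673) and a rho of 0.58 (adjusted p = 0.0409). The 24 pairs of a class I and a class II gene had r between −0.14 and 0.35, with 0 of 24 under 0.05 by either measure. This separation depended on the scaling, since 25 of the 45 pairs were under 0.05 once each mouse was given the same FPKM sum, and the r of H2-K1 with H2-Aa was then 0.75 in place of 0.31. With median-ratio scaling and both other pseudocounts, the number of pairs was within 1.5 times the 15 given here.

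**Figure D3:**
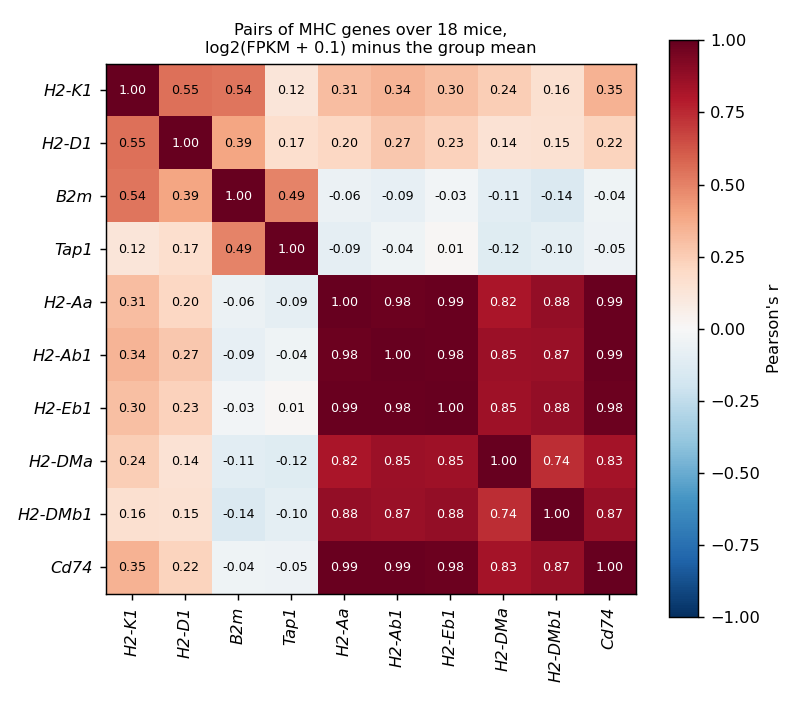
Pearson's r of each pair of MHC genes over 18 mice after the group means were removed, from −1 (blue) to 1 (red). The 6 class II genes form a block of r between 0.74 and 0.99, and pairs across the classes lie between −0.14 and 0.35.

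The class II level of a mouse was set beside the levels of cell type markers, each summed over a list of markers. Markers of dendritic cells and lymphocytes were low in these whole livers. The dendritic cell list (10 genes, led by Zbtb46 and Clec9a) summed to 2.33 to 3.65 FPKM in NC, 3.0 to 6.10 FPKM in HFD and 2.37 to 3.42 FPKM in SZ-A mice. The B cell list (8 genes, led by Cd79b and Cd79a) summed to 0.341 to 2.54 FPKM in NC, 0.929 to 2.22 FPKM in HFD and 0.626 to 2.69 FPKM in SZ-A mice. The T cell and NK cell list (12 genes, led by Trbc2 and Trac) summed to 2.34 to 6.34, 2.54 to 4.19 and 2.05 to 5.64 FPKM. No marker of these 3 lists was at 0 in all mice of a group, and 0 of them reached the mean of 1 FPKM needed for a test. Hepatocyte markers dominated, as the liver label implies, with sums of 39990 to 59192 FPKM in NC, 25411 to 43750 FPKM in HFD and 32213 to 55315 FPKM in SZ-A mice.

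Of 18 relations tested (H2-Aa and H2-K1, each with 9 marker lists), 5 had an adjusted p under 0.05, all of them with H2-Aa. With group means removed, the r of H2-Aa over the 18 mice was 0.76 with the T cell and NK cell list (rho 0.74, permutation p = 8e-05, adjusted p = 0.00144 for r and 0.0167 for rho), 0.73 with the dendritic cell list (adjusted p = 0.0101, rho 0.67) and 0.69 with the B cell list (adjusted p = 0.0101, rho 0.56 with adjusted p = 0.0706). Without the 2 mice farthest from the median of H2-Aa these became 0.65, 0.52 and 0.62. HFD1, the HFD mouse with most H2-Aa, also had the highest dendritic cell sum, 6.10 FPKM, and NC6 had the highest NC sums of all 3 lists. Within the dendritic cell list, Zbtb46 and Clec9a reached at most 0.926 and 0.733 FPKM in HFD mice. Itgax reached 2.46 FPKM and Batf3 1.31 FPKM there, so high HFD sums do not stand for the 2 leading markers. The cholangiocyte list, whose sum came mostly from Spp1, had an r of 0.63 (adjusted p = 0.0481 by permutation). Its rho was 0.68 (adjusted p = 0.0291 by permutation), and its r was 0.70 without the same 2 mice. By these 2 measures it was as close to H2-Aa as the dendritic cell and B cell lists. The monocyte-derived macrophage list had an r of 0.55 (adjusted p = 0.0481) and a rho of 0.49 (adjusted p = 0.146), both by permutation. Its r was 0.37 without the same 2 mice. By r, both relations lost the threshold without most single mice. The number of relations under 0.05 was 2 to 5 when single mice were left out, with 2 without NC5 and 2 without HFD1. With the Kupffer cell and macrophage list r was 0.39 (adjusted p = 0.457). For H2-K1, r lay under 0.35 with each of the 9 lists. The part of these cells in the class II levels was not tested.

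**Figure D4:**
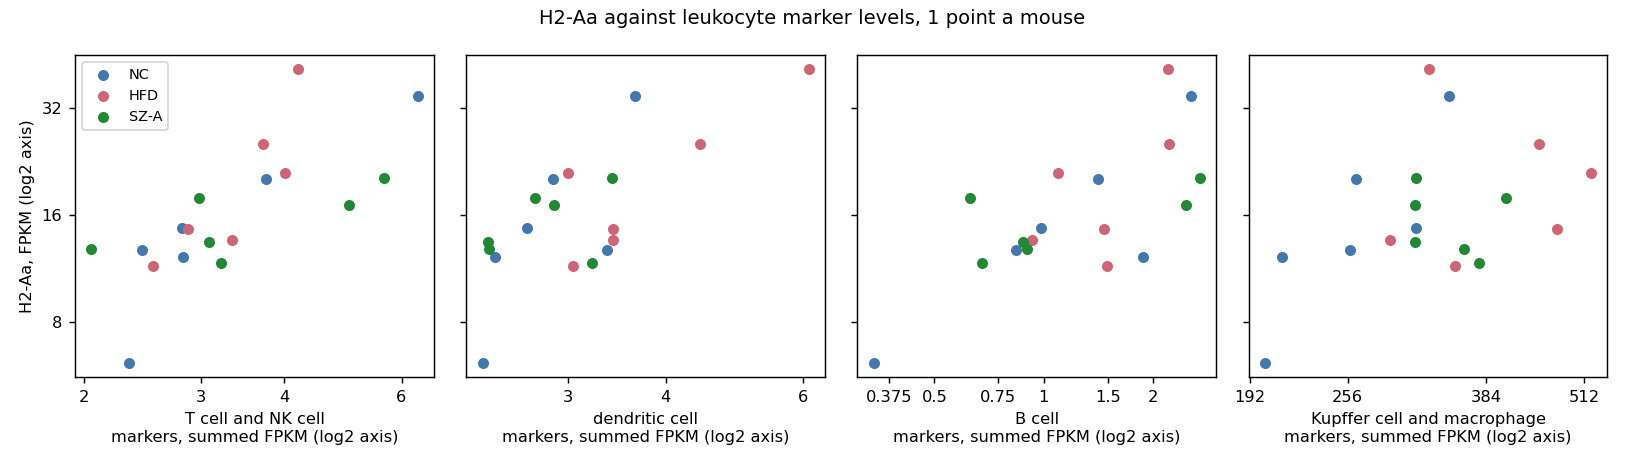
H2-Aa level (FPKM, log2 axis) against the summed FPKM (log2 axis) of 4 leukocyte marker lists, with 1 point for each of the 18 mice coloured by group. Mice with more T cell and NK cell, dendritic cell or B cell markers have more H2-Aa, with r of 0.76, 0.73 and 0.69 after the group means are removed, and r is 0.39 for the Kupffer cell and macrophage markers. The cholangiocyte list, which is not shown, had an r of 0.63.

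Markers of several cell types differed between HFD and NC mice, where 10.7% of all tested genes were called higher and 9.49% lower. The Kupffer cell and macrophage list (12 genes, led by Cd5l and C1qb) summed to 201, 260 and 345 FPKM (lowest, median and highest) in NC, 289.9, 399.6 and 523 FPKM in HFD, and 312, 337 and 408 FPKM in SZ-A mice, so that HFD and NC mice overlapped. Of its 12 markers, 6 were called higher in HFD than in NC and 0 lower, and Cd163 had a log2 fold change of −0.81 (adjusted p = 0.149). The monocyte-derived macrophage list (8 genes, led by Lyz2 and Cd9) summed to 52.6, 57.8 and 83.7 FPKM, 104, 120.1 and 151 FPKM, and 60.4, 77.6 and 119 FPKM. In that list the HFD mice lay above all NC mice, but most of the sum was Lyz2, with a mean of 114 FPKM in HFD mice. The only other tested marker, Cd9, had a log2 fold change of −0.30 (adjusted p = 0.349 by limma). The untested markers Gpnmb, Trem2, Ccr2, Cx3cr1, Ly6c2 and Itgam had low levels, with higher means in HFD than in NC mice. These means were 2.36 against 0.130 FPKM for Gpnmb and 0.215 against 0.127 FPKM for Itgam. In Gpnmb, Trem2 and Ccr2 the HFD mice lay above all NC mice. Of all tested genes, which leave these low genes out, 5.48% did so. Between SZ-A and HFD, 1 of the 12 Kupffer cell and macrophage markers was called, Cd68, as lower, against 0.0685% of all tested genes. In HFD against NC, 5 of 7 stellate cell markers were called higher (median log2 fold change 0.51) and 4 of 10 hepatocyte markers lower (median −0.38). Of the endothelial markers, 2 of 8 were called higher. The part of these shifts in the B2m, H2-D1 and Tap1 differences was not tested.

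By likeness of pattern over the 18 mice with group means removed, the 5 genes outside the members nearest to H2-Aa were Coro1a (r = 0.91), Axl (0.84), Sirpa (0.82), Ccdc85c (0.81) and Upf3b (0.81). Coro1a encodes an actin-binding protein of leukocytes, and Axl and Sirpa encode receptors found on macrophages and dendritic cells. The 5 nearest to H2-K1 were Zbtb11 (r = 0.83), Arpc3 (0.77), Trappc6b (0.76), Snrpd1 (0.73) and Bloc1s4 (0.72). These are the extremes of all tested genes and are given as a description.

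Other genes of the pathway were read from 4 lists. In HFD against NC, 10.7% of all tested genes were called higher and 9.49% lower. Class I peptide supply and loading held 12 tested genes of 12, of which 6 were called higher in HFD than in NC and 0 lower, with a median log2 fold change of 0.41 against −0.03 over all genes. The 3 largest changes were in the catalytic subunits of the immunoproteasome, which cuts proteins into class I peptides. Psmb10 had a lowest, median and highest value of 7.76, 9.34 and 13.7 FPKM in NC, 13.8, 17.5 and 21.9 FPKM in HFD, and 14.2, 15.9 and 16.4 FPKM in SZ-A mice. All HFD and all SZ-A mice lay above all NC mice, as in 5.48% (HFD) and 2.83% (SZ-A) of all tested genes. The log2 fold change of HFD against NC was 0.84 for Psmb10 (SE 0.141, adjusted p = 0.00128), 0.82 for Psmb9 (SE 0.210, adjusted p = 0.0148) and 0.73 for Psmb8 (SE 0.160, adjusted p = 0.0067). The other 3 called were Tapbp and Tapbpl, which edit the peptides on class I, and Erap1, which trims them. In SZ-A against HFD mice 0 of the 12 were called by limma, against 0.147% of all genes. There 0 had an unadjusted p under 0.05, against 14.8% of all genes. In SZ-A against NC mice 5 of 12 were called higher, against 5.31% of all genes, with log2 fold changes of 0.69 for Psmb10, 0.72 for Psmb9 and 0.74 for Psmb8. That count was 3 without NC4, SZ-A2, SZ-A3 or SZ-A6, and Psmb9 lost its call in each of these 4 (adjusted p = 0.0534 to 0.0648).

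Among other class I heavy chains, 12 of 17 genes were tested. Against shares of 10.7% higher and 9.49% lower over all tested genes, 3 were called higher in HFD than in NC and 0 lower. They were H2-Q1 (log2 fold change 1.66, SE 0.409, adjusted p = 0.0121), H2-T24 (0.64, adjusted p = 0.0316) and H2-T22 (0.64, adjusted p = 0.000484). The call of H2-T24 was lost without NC1, HFD2, HFD3, HFD4 or HFD5 (adjusted p = 0.0572 to 0.0697), while those of H2-Q1 and H2-T22 were kept without each single mouse. H2-T22 had a lowest, median and highest value of 18.3, 20.6 and 24.4 FPKM in NC, 28.9, 32.3 and 38.7 FPKM in HFD, and 28.6, 31.4 and 33.6 FPKM in SZ-A mice. Both HFD and SZ-A mice thus lay above all NC mice, as in 5.48% (HFD) and 2.83% (SZ-A) of all tested genes. H2-Q1 had a log2 fold change of −1.21 in SZ-A against HFD mice (unadjusted p = 0.00939, adjusted p = 0.185). These genes belong to a family of near copies, and how the counting split fragments among them is not stated, so their values are uncertain. The median of the list was 0.10 in HFD against NC, and 5 of its genes were called higher after rescaling to the same FPKM sum and 5 with sample weights.

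For the other class II chains and peptide loading, 6 of 10 genes were tested. In HFD against NC, 4 were called higher and 1 lower, against 10.7% and 9.49% of all tested genes. Ifi30, a lysosomal reductase of antigen processing, rose by 0.74 on the log2 scale (SE 0.128, adjusted p = 0.00155), Ctss, the protease that trims the invariant chain, by 0.71 (SE 0.111, adjusted p = 0.000836), and Lgmn, a lysosomal endopeptidase, by 0.67 (SE 0.111, adjusted p = 0.00116). The HFD mice lay above all NC mice in all 3, as in 5.48% of all tested genes. These 3 were picked for the largest changes of the list, which favours such a separation. Ctsb was the other called higher, and Ctsl, a further lysosomal cathepsin, was lower. The untested class II chains H2-Oa, H2-Ob and H2-Eb2 and the chain H2-DMb2 had group means of 0.0237 to 0.312 FPKM. In SZ-A against HFD mice 0 of the 6 were called by limma (3 as lower after that rescaling, 2 with sample weights and 1 with voom and library totals) and 3 had an unadjusted p under 0.05, among them Ctss (log2 fold change −0.42, adjusted p = 0.117) and Lgmn (−0.37, adjusted p = 0.117). Of all tested genes, 0.147% were called there and 14.8% had an unadjusted p under 0.05.

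Of 19 regulators of MHC transcription, 16 were tested. In HFD against NC, 3 were called higher and 1 lower, against 10.7% and 9.49% of all tested genes. Irf1, an interferon-induced activator of class I genes, rose by 0.48 on the log2 scale (SE 0.152, adjusted p = 0.0401), and this call was lost without 9 of the 12 mice in turn. Ifngr1, a chain of the interferon gamma receptor, was also called higher. Rfxank, a subunit of the RFX complex that binds MHC promoters, was lower, with a log2 fold change of −0.87 (SE 0.238, adjusted p = 0.0198). Nlrc5, the class I transactivator, had means of 1.81 ± 0.375 FPKM (NC), 1.88 ± 0.403 FPKM (HFD) and 2.12 ± 0.396 FPKM (SZ-A) and was not called. Ciita, the class II transactivator, was too low to be tested, at 0.179 ± 0.127 FPKM (NC), 0.355 ± 0.189 FPKM (HFD) and 0.206 ± 0.0706 FPKM (SZ-A; SD, n = 6 each). Ifng was listed at 0 in all NC mice and had a median of 0 in HFD and in SZ-A mice. Its highest values in these 2 groups were 0.0417 and 0.0389 FPKM. The values of Nlrc5, Ciita and Ifng are given for their roles and were not picked by the rule for named genes. Rescaling gave 6 regulators called higher, sample weights 5, voom with library totals 7, and leaving out NC2 1. In SZ-A against HFD mice 0 of the 16 were called by limma and 0 had an unadjusted p under 0.05, against 0.147% and 14.8% of all tested genes.

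**Figure D5:**
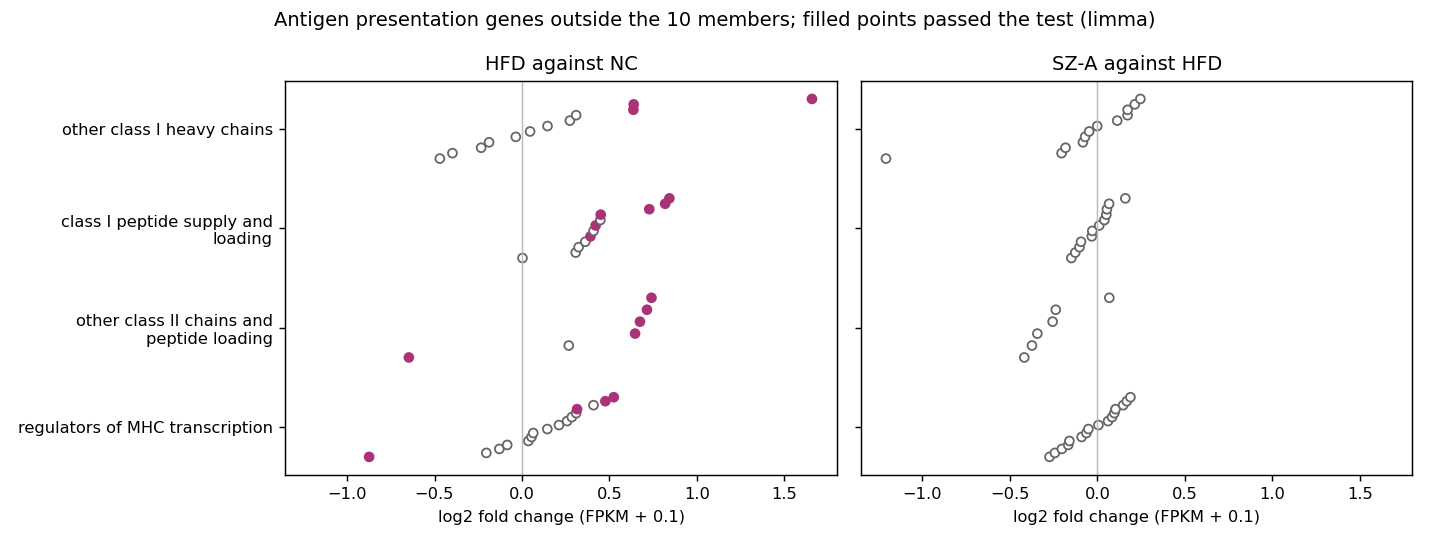
Log2 fold change (horizontal axis, FPKM + 0.1) of every tested gene in the 4 pathway lists, for HFD against NC and SZ-A against HFD, with filled points for calls by limma. The 12 class I peptide supply and loading genes have 6 filled points in HFD against NC, and no point is filled in SZ-A against HFD.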

How the data were processed

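Liver RNA of 18 mice was measured by paired-end, poly-A selected RNA-seq. The authors aligned reads to GRCm38 with HISAT2 and deposited FPKM per gene, with gene length and position. The submitters' processing notes name HISAT2 2.0.5 and featureCounts 1.5.0-p3, and whether counting used strand is not given in the sources used here. Groups and replicate numbers came from the sample titles. Whole fragments, worked back from the deposited FPKM and gene length, came out whole within 0.05 for all values, and totalled 17163191 to 20493907 per mouse, and counting error weighs most on H2-DMa and H2-DMb1.

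Each comparison was fitted on its own 2 groups with limma 3.58.1 (R 4.3.3) on log2(FPKM + 0.1), with an intensity trend, over the 10216 genes that averaged 1 FPKM or more, without covariates. P-values were Benjamini-Hochberg adjusted over all of these genes, and calls needed a value under 0.05 with a fold change above 1.2. The study tested counts with DESeq2, which was not repeated on FPKM, and voom on whole fragments served as an alternative. The method was tested on simulated data. Correlations used values minus the group mean and 100000 permutations within groups.

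The members, lists and tests were chosen with earlier results of these data known. The genes named are all 10 members, of each pathway list up to 3 called genes with the largest change between HFD and NC, the 2 most abundant markers of each list, and the 5 genes most like H2-K1 and H2-Aa. Tapbp, Tapbpl, Erap1, Ctsb, Ctsl, Ifngr1, Cd68, Cd163, Itgax and Batf3 were named after their values were seen. So were the low class II chains and the untested monocyte-derived macrophage markers. The values of 1 gene that this rule picks are not reported here.

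Alternatives were 2 other pseudocounts, 2 filters, 2 scalings, a joint fit, no trend, sample weights, a replicate block, voom with 2 library sizes, 2 fold limits and each mouse left out. Replicate numbers were not taken as pairs of mice in the main fits. No 2 mice of a group were duplicates. The titles do not say whether cages were shared.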

Additional observations from a re-analysis of the deposited data

Results flagged for a closer look

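In a check for single mice far from the rest of their group, over 66 groups of 6 mice (the 10 members and the 12 named pathway genes, in 3 groups each), 2 values stood apart, where chance gives about 1 in 20 groups. Neither was in one of the 30 groups of the members. Rfxank was at 7.39 FPKM in NC5, against 3.22 FPKM in the next highest NC mouse. Its log2 fold change of HFD against NC was between −0.97 and −0.63 when single mice were left out, and it kept its call each time. Irf1 was at 3.92 FPKM in SZ-A2, against 5.55 FPKM in the next lowest SZ-A mouse.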

How the results depend on the processing

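Of 774 log2 fold changes of the 10 members under other settings and without single mice, 714 kept their direction and their side of the threshold, 17 lost a call, 11 gained one and 32 turned in direction. The cause of these changes was not tested. In HFD against NC, the number of members called higher went from 3 to 1 with no filter (H2-D1 stayed called), 1 with the replicate block (B2m stayed called) and 0 with a fold change over 2, and to 1 to 5 without single mice. In SZ-A against HFD, 1 member was called lower when FPKM was rescaled to a common sum. In SZ-A against NC, 1 was called higher with a mean FPKM of at least 5, 1 with all 18 mice in one fit, 1 with voom and library totals, and 2 with sample weights. Of the 45 member pairs, 25 passed when FPKM was rescaled, and of the 18 marker relations 2 to 5 passed without single mice.

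The turned values were small. H2-K1 in HFD against NC was −0.017 to 0.058 without single mice, and 0.025 to 0.22 under the other settings. In SZ-A against HFD, H2-K1 was −0.076 after rescaling and −0.010 with voom and library totals. In SZ-A against NC, sample weights gave −0.22 for H2-Aa, −0.081 for H2-Ab1, −0.25 for H2-Eb1 and −0.10 for H2-DMa, and a pseudocount of 1 gave −0.0022 for H2-Eb1. Cd74 was 0.014 after rescaling, 0.0021 with median-ratio scaling, 0.0024 with voom and median-ratio sizes, and 0.042 with voom and totals. Without single mice, the SZ-A against NC values ran from −0.19 to 0.31 for H2-Aa, −0.031 to 0.42 for H2-Ab1, −0.21 to 0.27 for H2-Eb1, −0.053 to 0.19 for H2-DMa, −0.12 to 0.36 for H2-DMb1 and −0.18 to 0.21 for Cd74.

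Replicate numbers were not taken as pairs of mice. Of 18 pairs of same-numbered mice, 3 had a correlation of their deviations over 0.1 (range −0.12 to 0.29, highest for HFD2 with SZ-A2). Counting mice that correlated best with their own number in both other groups at once gave 0. Few mice would meet that strict rule without pairing, so the count of 0 cannot decide whether mice were paired. The replicate block gave 1647 called genes in HFD against NC in place of 2062, 0 in place of 15 in SZ-A against HFD (1492 at an unadjusted p under 0.05), and 922 in place of 981 in SZ-A against NC. Between SZ-A and HFD the count over all genes was 0 with no filter, 216 after rescaling, 233 with sample weights and 68 with voom and totals. Depth limits H2-DMb1 and H2-DMa, with as few as 22 and 43 fragments in a mouse.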
